A study of Mus musculus with 12 samples.

Results

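Aminoacyl-tRNA synthetases are the enzymes that join each amino acid to its transfer RNA. They were followed here in RNA-seq libraries of mouse alveolar macrophages, the resident phagocytes of the airspaces, from naive lungs and from a lung transplant model. The members are 36 genes taken by symbol, with the symbols of the GENCODE M21 annotation: 20 that encode cytosolic enzymes and 16, with symbols ending in 2, that encode mitochondrial ones. They are 36 of 43430 genes in the deposited table. The rule used no measured value. The libraries fall into 3 groups of 4, namely naive lungs, lungs at 2 h after reperfusion and lungs at 24 h after reperfusion, where reperfusion is the return of blood flow to the lung. All 12 libraries came from male mice 14 weeks of age labelled Cx3cr1gfp/+B6, a reporter line in which green fluorescent protein replaces a copy of the gene for the chemokine receptor CX3CR1, so that the naive controls carry the allele too. Allo appears in the titles at 2 h and 24 h without an explanation, and the labels do not say whether the macrophages are of donor or recipient origin. Whether each library is from its own mouse is not stated, and p-values therefore reflect library-to-library spread that could be technical.

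A synthetase activates its amino acid with ATP and transfers it to the matching tRNA, and the charged tRNA then brings the amino acid to the ribosome. Class I and class II enzymes have unrelated catalytic folds. In animals some cytosolic synthetases are held with scaffold proteins in the multi-synthetase complex, and the mitochondrial enzymes, encoded in the nucleus and imported, serve the separate ribosomes of that organelle. Gars and Kars are exceptions, since each encodes both the cytosolic and the mitochondrial form. Uncharged tRNA activates the kinase GCN2, which phosphorylates the initiation factor eIF2 and raises translation of the transcription factor ATF4, and several cytosolic synthetase genes are known ATF4 targets.

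The values are RPKM, which are reads scaled by gene length and by the size of the library, from libraries of 6112586 to 11997945 reads. The 24 h libraries were the deepest, with 9129420 to 11997945 reads against 6112586 to 8796071 in the naive and 7242824 to 10347265 in the 2 h libraries. A gene was tested where it reached 1 RPKM in at least 4 of the 12 libraries. This kept 11419 genes, among them all 20 cytosolic members and 15 of the 16 mitochondrial ones. Pars2, the mitochondrial prolyl enzyme, reached 1 RPKM in 3 libraries and was not tested. Differences and their standard errors (SE) are on the log2(RPKM + 1) scale, which understates the change of genes with low values. A gene is said to have risen or fallen where limma's adjusted p was under 0.05, with 4 libraries a group, and folds are ratios of mean RPKM. Of the labelled cell type, all 11 listed markers were tested, and they summed to 10792 to 11212 RPKM in the naive, 7235 to 8581 in the 2 h and 9102 to 10916 in the 24 h libraries. Chil3 held most of these sums, with means of 7780 RPKM in naive, 4970 in 2 h and 7802 in 24 h libraries. From naive to 24 h, 6 of the 11 markers fell and 2 rose, where 20.6% of all genes tested fell and 25.3% rose. Krt19, Itgax and Siglecf were among the markers that fell and Marco among those that rose.

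Levels of different members were set side by side as RPKM recomputed from recovered reads over the gene's annotated exons, since the deposited values imply gene lengths that exceed the annotated exons by a median of 1.31 times over all tested genes. On that scale the glycyl enzyme gene Gars was the highest member in naive libraries, at 76.8 ± 2.74 (SD, n = 4). Lars2, the mitochondrial leucyl enzyme gene, followed at 63.1 ± 20.1, a spread that overlaps Gars. Nars, the asparaginyl enzyme gene, came next at 33.9 ± 0.964. The naive level was 22.7 ± 0.582 for Sars, the seryl enzyme gene, 21.2 ± 0.509 for Rars, the arginyl one, and 19 ± 0.529 for Hars, the histidyl one. The median cytosolic member stood at 15.3 and the median mitochondrial member at 3.56. Without Lars2, the highest mitochondrial member was Iars2, the isoleucyl enzyme gene, at 9.86 ± 0.517, below 17 of the 20 cytosolic members. The lowest was Mars2, the methionyl one, at 1.01 ± 0.157. The reads behind these values ranged from 206 to 3041 a library over cytosolic members and from 13 to 1158 over mitochondrial members other than Lars2, so the mitochondrial values carry more counting error. The order depends on the length used. Lars2 and Cars2 are among the members with implied lengths shorter than their annotated exons, at 3881 against 11089 bases and 1846 against 7237. So are Gars, at 2390 against 3119, Nars, at 2632 against 4355, and Hars, at 1987 against 2447. Sars and Rars have longer ones, at 7140 against 5142 and 4786 against 3228. As deposited, mean naive RPKM was 180 for Lars2 and 100 for Gars, and 12.4 for Cars2 and 5.52 for Iars2.

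**Figure D1:**
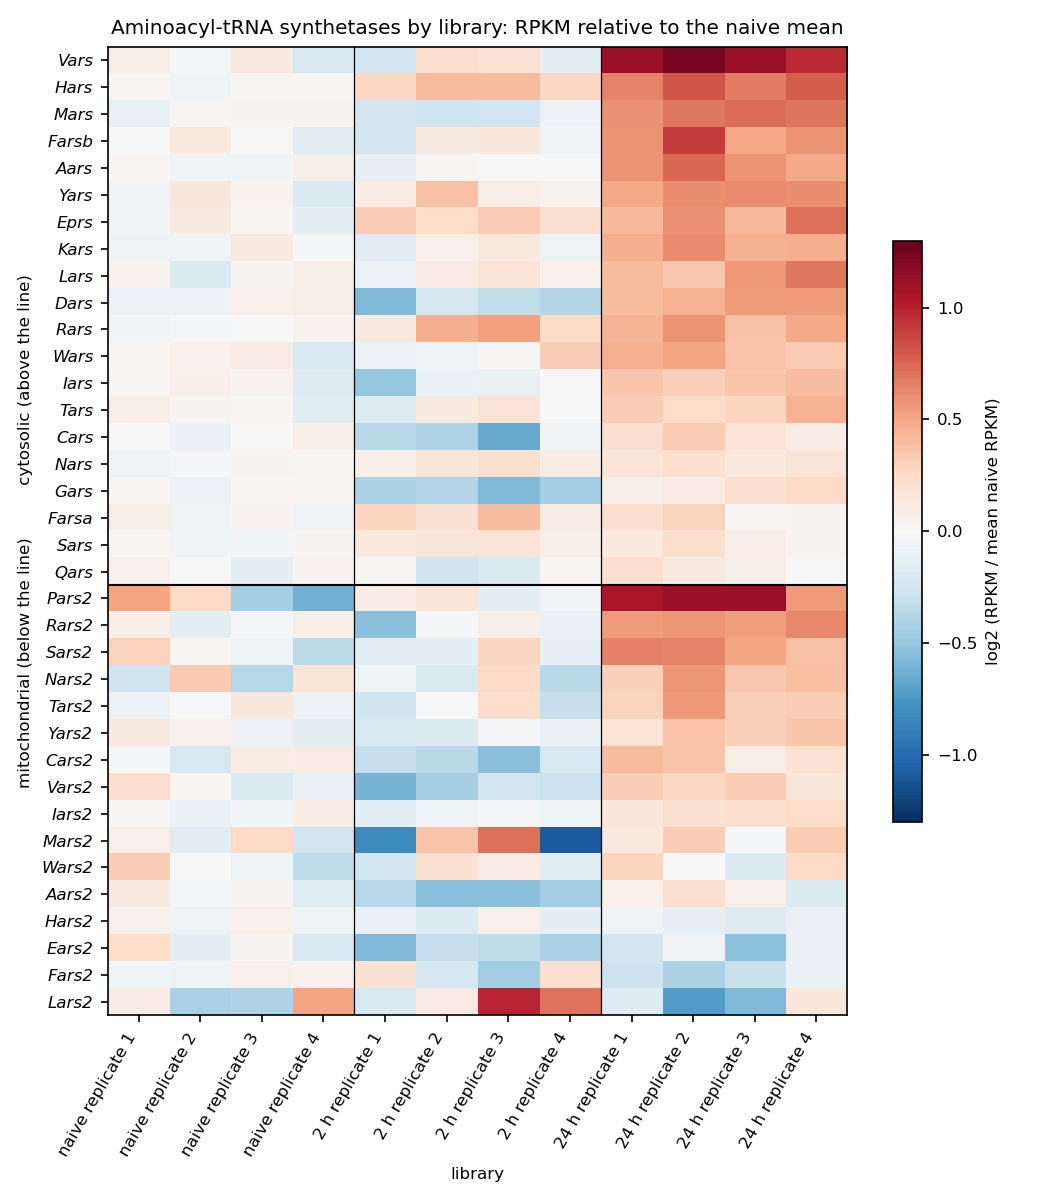
Heat map of the 36 members (rows, cytosolic above the line and mitochondrial below it, each ordered by the ratio of mean RPKM at 24 h to naive) in the 12 libraries (columns), coloured by log2 of the RPKM over the gene's mean naive RPKM. The 4 columns at 24 h are red for most cytosolic genes, from Vars at the top, while Lars2 at the bottom varies between libraries of one group.

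Whether synthetase transcripts moved in the first hours after reperfusion was asked by the comparison of 2 h with naive. Cytosolic members split: of 20, 5 rose (Hars, Rars, Eprs, Nars and Farsa), 4 fell (Gars, Dars, Mars and Cars) and 11 did not pass the test, with a median difference of 0.02 on the log2(RPKM + 1) scale. Of 15 mitochondrial members none rose, 2 fell (Aars2 and Cars2) and 13 did not pass, with a median of -0.06. Over all 11419 genes 1675 rose, or 14.7%, and 2514 fell, or 22.0%, with a median of -0.04. With the libraries rescaled by median ratios the split over all genes was 2062 higher and 2043 lower. In bulk libraries fewer cells of a type and less RNA per cell cannot be told apart.

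Gars fell at 2 h by the smallest p of any member. Its RPKM was 102, 94.9, 102 and 102 in the naive libraries and 75.4, 77.1, 67.5 and 74.0 at 2 h. Every 2 h library lay below every naive one, a ratio of means of 0.733 (difference -0.44, SE 0.05, adjusted p = 0.000142). Dars, which encodes the aspartyl enzyme of the multi-synthetase complex, read 12.1, 12.1, 13.4 and 13.5 in naive libraries and 8.60, 10.9, 10.2 and 9.79 at 2 h. These groups did not overlap either, with a ratio of 0.773 (difference -0.34, SE 0.07, adjusted p = 0.00279). Mars, for the methionyl enzyme that charges both initiator and elongator tRNA, fell to 0.868 of the naive mean and Cars, for the cysteinyl enzyme, to 0.785, and in both genes a 2 h library overlapped the naive range.

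Hars moved the other way. It read 23.9, 22.5, 23.6 and 23.7 RPKM in naive libraries and 28.3, 31.2, 31.1 and 28.2 at 2 h. The lowest 2 h library stood above the highest naive one, a 1.27-fold rise (difference 0.33, SE 0.05, adjusted p = 0.000874). Rars, for the arginyl enzyme of the complex, read 14.0, 14.2, 14.3 and 14.8 in naive libraries and 15.5, 19.9, 20.7 and 17 at 2 h. The 2 h libraries were all higher but spread over a wider range, with a ratio of 1.28 (difference 0.32, SE 0.08, adjusted p = 0.00888). Eprs, whose single protein charges both glutamate and proline, rose 1.21-fold, Farsa, for the catalytic subunit of the phenylalanyl enzyme, 1.19-fold, and Nars 1.1-fold. Farsb, for the other subunit of that enzyme, had a ratio of 1.0 (adjusted p = 0.986). The call for Farsa was lost in 9 of 19 alternative fits (adjusted p up to 0.108).

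Among mitochondrial members at 2 h, Aars2, for the alanyl enzyme, read 5.26, 4.82, 4.99 and 4.35 RPKM in naive libraries and 3.75, 3.32, 3.34 and 3.55 at 2 h. All 2 h libraries were below all naive ones, a ratio of 0.718 (difference -0.38, SE 0.07, adjusted p = 0.00214). Cars2, for the cysteinyl enzyme, read 12.3, 10.8, 13.3 and 13.4 in naive libraries and 10.1, 9.79, 8.57 and 10.8 at 2 h. The ranges met at one library of each group, and the ratio was 0.790 (difference -0.31, SE 0.09, adjusted p = 0.0191). Vars2 and Ears2, for the valyl and glutamyl enzymes, were at 0.765 and 0.758 of the naive mean with no overlap between groups, and did not pass (adjusted p = 0.0598 and 0.0748). Vars2 read 1.3, 1.14, 0.987 and 1.05 RPKM in naive libraries and 0.734, 0.832, 0.943 and 0.920 at 2 h. Ears2 read 1.39, 1.09, 1.21 and 1.03 in naive libraries and 0.794, 0.960, 0.939 and 0.883 at 2 h. Both passed in a fit to reads recovered from the RPKM values, with adjusted p = 0.0115 and 0.0343.

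The cytosolic counts at 2 h turned on single libraries. Rises numbered 3 in place of 5 without naive replicate 1, 2 or 4 or without 2 h replicate 2 or 3, and falls 2 in place of 4 without naive replicate 4 or without 2 h replicate 2 or 3, while mitochondrial falls numbered 1 without naive replicate 3 or 4 or without 2 h replicate 3.

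At 24 h the cytosolic synthetases had risen almost throughout. Against naive, 16 of 20 rose and none fell, with all 20 differences above 0 and a median of 0.45 on the log2(RPKM + 1) scale. Of 15 mitochondrial members 6 rose (Sars2, Rars2, Tars2, Cars2, Yars2 and Iars2), none fell and 9 did not pass, with a median of 0.15. Over all genes tested 2887 rose, or 25.3%, and 2354 fell, or 20.6%, with a median of 0.00. The cytosolic members that did not pass were Cars (adjusted p = 0.133), Farsa (0.205), Sars (0.0648) and Qars, for the glutaminyl enzyme (0.297). Pars2 lay at 0.333 to 0.730 RPKM in naive and 0.755 to 1.12 at 24 h, without a test.

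Vars, for the valyl enzyme, had the largest rise. It read 5.02, 4.70, 5.20 and 4.13 RPKM in naive libraries, 4.00, 5.55, 5.43 and 4.40 at 2 h and 10.4, 11.2, 10.3 and 9.34 at 24 h. The naive and 2 h ranges overlapped and the 24 h libraries stood apart from both, 2.17-fold above naive (difference 0.97, SE 0.10, adjusted p = 7.73e-06). Hars had the smallest p and kept rising. At 24 h it read 36.7, 41.2, 37.1 and 40.4, above every 2 h library, 1.66-fold over naive (difference 0.71, SE 0.05, adjusted p = 1.05e-06).

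Mars read 4.60, 5.01, 5.04 and 5.05 RPKM in naive libraries, 4.17, 4.12, 4.14 and 4.66 at 2 h and 7.43, 7.93, 8.13 and 7.96 at 24 h. Its 24 h libraries were above all others, 1.60-fold over naive (difference 0.58, SE 0.05, adjusted p = 3.17e-06). Aars, for the alanyl enzyme, read 7.47, 7.04, 7.13 and 7.73 in naive libraries, 6.83, 7.49, 7.33 and 7.35 at 2 h and 11, 12.3, 11 and 10.3 at 24 h. The first 2 groups overlapped and the 24 h group was 1.52-fold above naive (difference 0.54, SE 0.06, adjusted p = 1.26e-05). Farsb rose 1.57-fold, Yars, for the tyrosyl enzyme, 1.5-fold, Eprs 1.46-fold, Kars, for the lysyl enzyme, 1.43-fold, Lars, for the leucyl enzyme, 1.42-fold and Dars 1.41-fold. Rars rose 1.39-fold, Wars, for the tryptophanyl enzyme, 1.34-fold, Iars 1.28-fold, Tars, for the threonyl enzyme, 1.25-fold, Nars 1.13-fold and Gars 1.12-fold. The call for Gars was lost with median-ratio scaling, with the replicate number as a block and without naive replicate 2 or 3 or 24 h replicate 3 or 4, with adjusted p up to 0.0893.

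**Figure D2:**
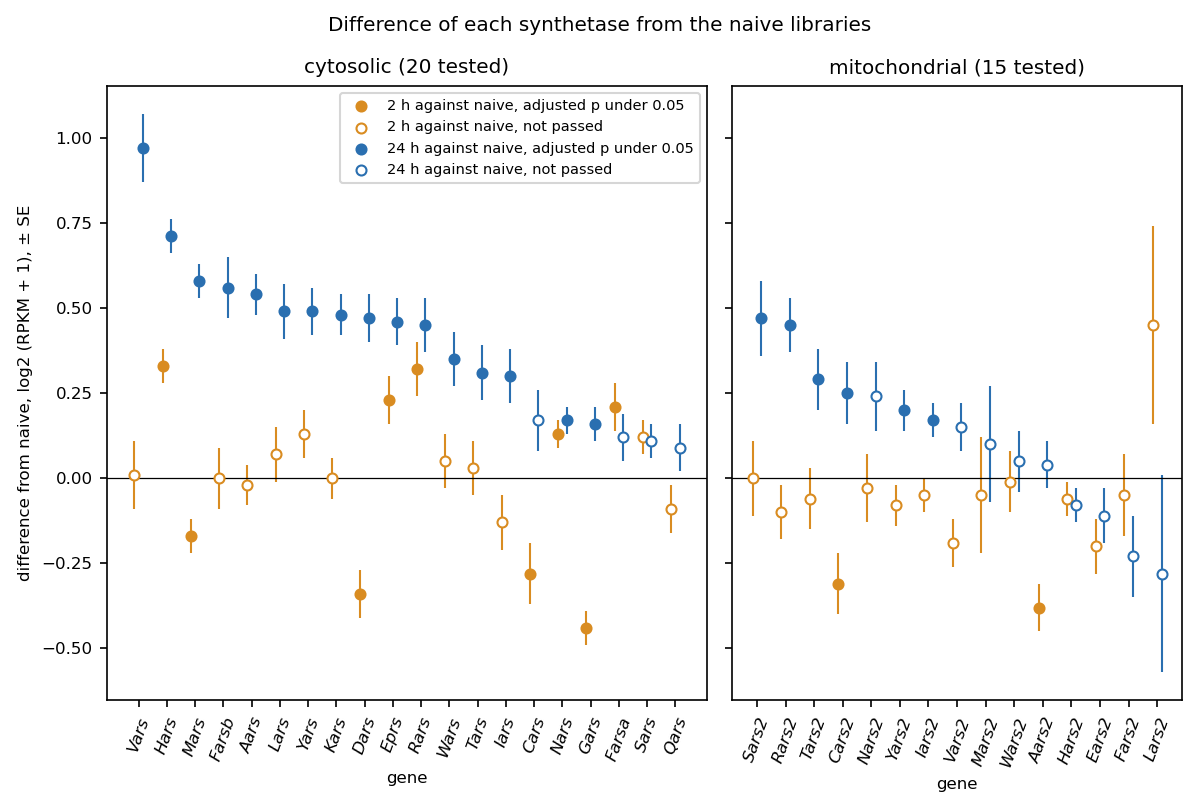
Fitted difference from naive for each tested synthetase at 2 h (orange) and 24 h (blue) on the log2(RPKM + 1) scale, with SE bars and filled points where the adjusted p was under 0.05. In the cytosolic panel the blue points lie above 0 throughout, from 0.97 for Vars to 0.09 for Qars, while the orange points lie on both sides of 0.

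Rars2, for the arginyl enzyme, had the smallest p of the mitochondrial members at 24 h. It read 3.06, 2.67, 2.85 and 3.06 RPKM in naive libraries, 1.99, 2.87, 3.06 and 2.74 at 2 h and 4.27, 4.33, 4.23 and 4.49 at 24 h. The 24 h libraries were tightly grouped above all others, 1.49-fold over naive (difference 0.45, SE 0.08, adjusted p = 0.00110). Sars2, for the seryl enzyme, read 5.36, 4.42, 4.20 and 3.43 in naive libraries and 6.85, 6.81, 6.21 and 5.68 at 24 h. The groups did not overlap although the naive libraries were widely spread, and the rise was 1.47-fold (difference 0.47, SE 0.11, adjusted p = 0.00443).

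Iars2 read 5.60, 5.22, 5.39 and 5.89 RPKM in naive libraries and 6.09, 6.32, 6.39 and 6.52 at 24 h, a 1.15-fold rise without overlap (difference 0.17, SE 0.05, adjusted p = 0.0107). Yars2, for the tyrosyl enzyme, read 1.88, 1.82, 1.65 and 1.60 in naive libraries and 1.97, 2.24, 2.15 and 2.23 at 24 h, a 1.24-fold rise without overlap (difference 0.20, SE 0.06, adjusted p = 0.0176). Tars2, for the threonyl enzyme, rose 1.3-fold and Cars2 1.21-fold. The call for Tars2 was lost without naive replicate 1 or 24 h replicate 2 (adjusted p up to 0.0618), and that for Cars2 without naive replicate 1 or 2 or 24 h replicate 1 or 2, with no filter, with median-ratio scaling and with a replicate block (adjusted p up to 0.110). Hars2, Ears2, Fars2 and Lars2 had means below naive at 24 h, with ratios of 0.929, 0.862, 0.836 and 0.816, and did not pass.

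**Figure D3:**
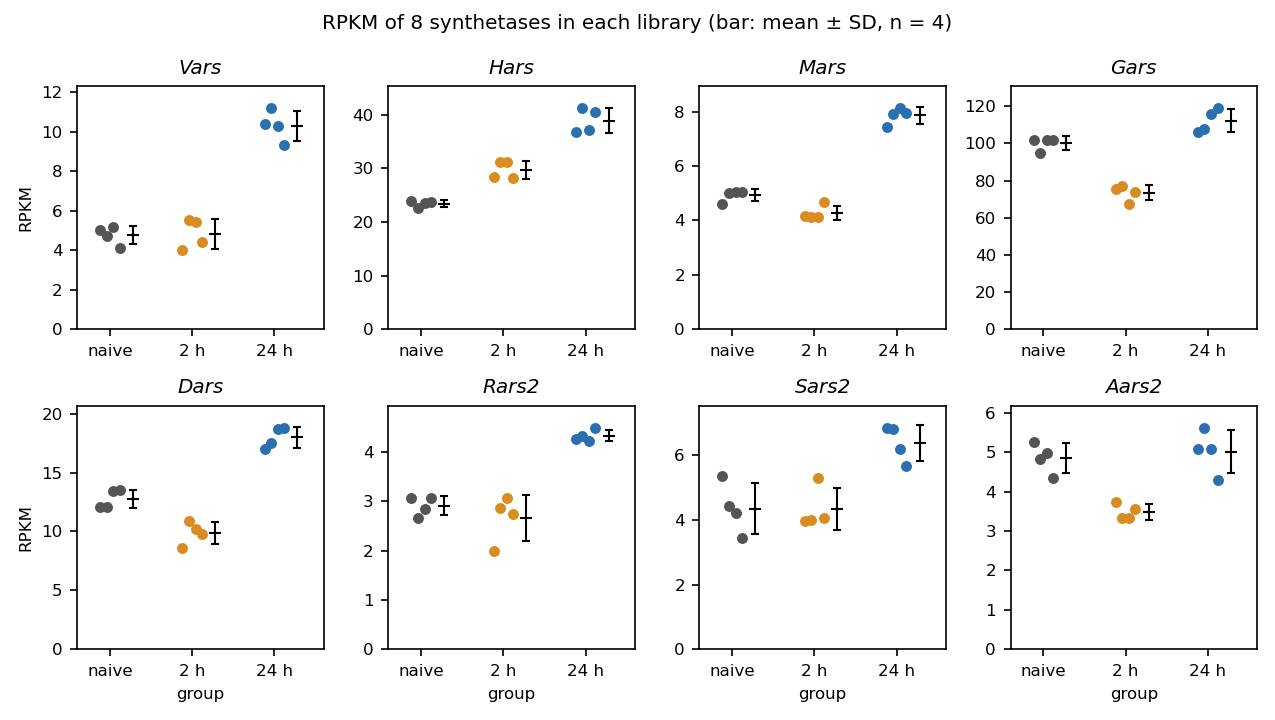
RPKM of 8 members in each of the 12 libraries, one panel a gene with its own axis from 0 and a bar for mean ± SD (n = 4). Gars, Dars and Aars2 dip at 2 h, Hars is higher at each later time, and Vars, Mars, Rars2 and Sars2 stand highest at 24 h.

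From 2 h to 24 h, 16 of 20 cytosolic members rose and none fell, with a median difference of 0.40, and 9 of 15 mitochondrial members rose and none fell, with a median of 0.27. Over all genes 3534 rose, or 30.9%, and 2458 fell, or 21.5%, with a median of 0.05. With median-ratio scaling the split over all genes was 2984 higher and 3011 lower. This comparison shares its 24 h libraries with the one above and its 2 h libraries with the first, so the 3 sets of calls are not independent. Each count of no rise or no fall given here for synthetases was by limma and was also 0 at an unadjusted p under 0.05 and by voom, except that Lars2 was lower at 24 h than at 2 h by both. The 4 cytosolic genes with the smallest p were Mars (1.84-fold, difference 0.75, adjusted p = 2.52e-07), Dars (1.83-fold, 0.81, 1.79e-06), Gars (1.53-fold, 0.61, 2.96e-06) and Vars (2.13-fold, 0.96, 6.24e-06). The 24 h libraries read 17, 17.5, 18.7 and 18.8 RPKM for Dars and 106, 108, 116 and 119 for Gars, above every naive library of each gene.

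Among mitochondrial members Rars2 rose 1.62-fold from 2 h to 24 h (difference 0.55, adjusted p = 0.000202), Cars2 1.53-fold (0.57, 0.000269), Aars2 1.44-fold (0.42, 0.000518) and Iars2 1.2-fold (0.22, 0.00184). Iars2 read 5.07, 5.34, 5.44 and 5.32 RPKM at 2 h, below every 24 h library. Cars2 read 16.6, 16.1, 13.2 and 14.2 RPKM and Aars2 5.08, 5.62, 5.08 and 4.29 at 24 h. The 24 h libraries of Aars2 overlapped its naive range, and those of Cars2 overlapped theirs at the lower end. The rise of Qars, 1.15-fold, was lost with no filter, with median-ratio scaling, with the 2 groups alone and without any of naive replicates 1, 2 and 4, 2 h replicates 2 and 3 and 24 h replicates 1, 2 and 3 (adjusted p up to 0.173). The rise of Nars2, for the asparaginyl enzyme, was lost with no filter, with median-ratio scaling, with a replicate block and without 2 h replicate 1, 2 or 4 or any 24 h library (adjusted p up to 0.101).

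By time course, 9 cytosolic members did not pass at 2 h and rose at 24 h against both other groups: Aars, Farsb, Iars, Kars, Lars, Tars, Vars, Wars and Yars. The fall at 2 h followed by a rise above naive was shared by 3, Dars, Gars and Mars, but the call for Mars at 2 h was lost in 8 of 19 alternative fits: with median-ratio scaling, with the 2 groups alone and without any of naive replicates 2, 3 and 4 and 2 h replicates 1, 2 and 3 (adjusted p up to 0.0692). The rise of Gars above naive was lost in 6 of 19 alternative fits (adjusted p up to 0.0893). Eprs and Hars rose in all 3 comparisons. The calls for Hars held in all 19 alternative fits, while Eprs lost its call at 2 h without naive replicate 4 (adjusted p = 0.0550) and its call from 2 h to 24 h with median-ratio scaling (adjusted p = 0.0578). Rars and Nars rose by 2 h and had no further change that passed, with ratios of 24 h to 2 h of 1.09 and 1.02. Farsa rose at 2 h alone, Cars fell at 2 h and rose from there, Qars rose from 2 h to 24 h, and Sars passed in none of the comparisons. The 2 h call for Farsa was lost in 9 of 19 alternative fits (adjusted p up to 0.108). That for Nars was lost in 5 of 19 (up to 0.0786) and that for Cars in 4 of 18 (up to 0.059). Of the mitochondrial members 5 passed as higher at 24 h against both other groups with no call at 2 h (Iars2, Rars2, Sars2, Tars2 and Yars2), and 6 passed in none (Ears2, Fars2, Hars2, Lars2, Mars2 and Wars2). By single comparison, 14.7% of all genes tested rose and 22.0% fell at 2 h. The shares were 25.3% and 20.6% from naive to 24 h and 30.9% and 21.5% from 2 h to 24 h. How many of all genes followed each time course was not counted.

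The compartments were also compared library by library, as the median over tested members of log2(RPKM + 1) minus the gene's naive mean. Cytosolic medians were -0.01 to 0.03 in naive libraries, -0.08 to 0.12 at 2 h and 0.35 to 0.44 at 24 h. Mitochondrial medians were -0.05 to 0.06, -0.15 to 0.05 and 0.09 to 0.19. Both compartments at 24 h lay above their naive libraries, and the cytosolic median exceeded the mitochondrial one by 0.25 to 0.27 in the 24 h libraries, by 0.07 to 0.19 at 2 h and by -0.04 to 0.07 in naive ones. Summed over cytosolic members, RPKM was 322 to 336 in naive, 305 to 332 in 2 h and 407 to 431 in 24 h libraries.

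The pseudocount shrinks the differences of low genes, so the compartments were also compared without it. As log2 ratios of mean RPKM, the 24 h to naive median was 0.49 for cytosolic and 0.20 for mitochondrial members, beside 0.00 over all tested genes. From 2 h to 24 h the medians were 0.43 and 0.44, beside 0.05 over all genes, where the log2(RPKM + 1) medians were 0.40 and 0.27. At 2 h against naive they were 0.03 and -0.07, beside -0.05.

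**Figure D4:**
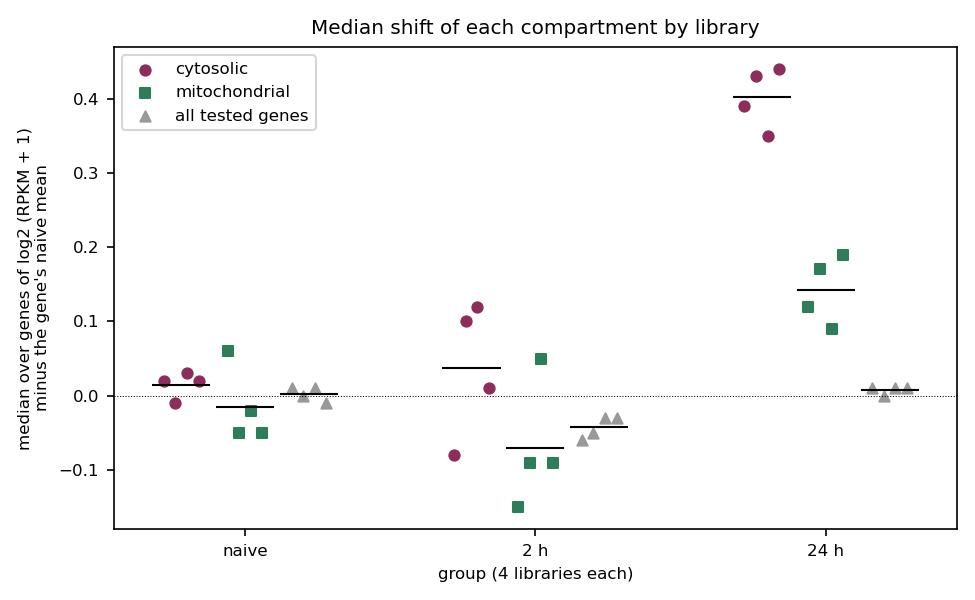
Median over tested members of log2(RPKM + 1) minus each gene's naive mean, for cytosolic members (circles), mitochondrial members (squares) and all tested genes (triangles), one point per library with a line at the mean of the 4 libraries. At 24 h the cytosolic points lie at 0.35 to 0.44 and the mitochondrial ones at 0.09 to 0.19, while all tested genes stay near 0.

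Set against each other by amino acid, the cytosolic gene had the larger log2 ratio of 24 h to naive in 10 of 16 pairs, counting Eprs against both Ears2 and Pars2 and Farsa against Fars2. The histidyl pair was far apart, at 0.73 for Hars and -0.11 for Hars2. These neighbours on chromosome 18 are transcribed away from each other and their exons overlap by 195 bases, and counting is not stated to use strand. The valyl pair stood at 1.12 for Vars and 0.27 for Vars2, and the alanyl pair at 0.60 and 0.05. The order was turned in the seryl pair, at 0.12 for Sars and 0.55 for Sars2, and in the asparaginyl pair, at 0.17 for Nars and 0.41 for Nars2. Differences within pairs were not tested.

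The members were also split by structural class and by membership of the complex. From naive to 24 h, 12 of 19 class I and 10 of 16 tested class II members rose, where 25.3% of all genes tested rose and 20.6% fell. Of the 8 synthetases of the multi-synthetase complex 7 rose, with a median difference of 0.47, and of the 12 cytosolic ones outside it 9 rose, with a median of 0.33. Among its scaffold proteins Aimp2 rose 1.53-fold (difference 0.53, SE 0.12, adjusted p = 0.00352) and Aimp1 1.25-fold (0.31, SE 0.08, 0.00583), while Eef1e1 had a ratio of 1.32 and did not pass (0.38, SE 0.18, 0.103). Of the 12 synthetase genes listed as known ATF4 targets 10 rose, with a median of 0.33, and of the 8 other cytosolic ones 6 rose, with a median of 0.47. Differences between these splits were not tested.

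Promoters were searched for the letters of 4 known motifs. RefSeq windows from 250 bases before to 50 after the start (assembly GRCm38.p6, the same assembly as mm10) were matched by symbol for 13 cytosolic and 14 mitochondrial members. The C/EBP-ATF element, a site known for ATF4 dimers and searched as TGATGNAA on both strands, stood in 5 of 13 cytosolic windows (Aars, Gars, Iars, Tars and Yars), in none of 14 mitochondrial ones and in 3.97% of all 32851 promoter windows. One site of each gene is shown with 10 bases on either side, 5′ to 3′ on the strand that carries the motif, with the motif in capitals and the place of its first base in the direction of the gene, because among the members the element stood in cytosolic windows alone. All 5 of these genes rose from naive to 24 h, and so did 5 of the 8 cytosolic genes whose windows lack it (Dars, Eprs, Farsb, Kars and Mars). Of the matched cytosolic genes that fell at 2 h, Gars has the element, and Dars and Mars lack it. The sites follow.
Aars, at 9 bases from the start site: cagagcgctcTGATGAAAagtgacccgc
Gars, at -30 bases: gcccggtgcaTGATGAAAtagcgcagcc
Iars, at 7 bases: cgtctggaggTGATGCAAtactgacagt
Tars, at -15 bases: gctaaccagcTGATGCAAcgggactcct
Yars, at 3 bases: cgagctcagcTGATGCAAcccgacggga

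The E-box, CACGTG, the letters bound by MYC and USF factors, stood in 4 cytosolic windows (Aars, Farsb, Iars and Tars), in 1 mitochondrial window (Ears2) and in 7.15% of all windows. The core of the NRF1 motif, GCATGCGC, letters known for a regulator of nuclear genes for mitochondria, stood in no cytosolic window, in 3 mitochondrial ones (Rars2, Vars2 and Wars2) and in 2.71% of all. The cAMP response element, TGACGTCA, stood in none of either and in 1.79% of all. Matches of different motifs did not overlap. The NRF1 cores are shown in the same way, because Rars2 had the smallest p of the mitochondrial members at 24 h while Wars2 did not pass in any comparison.
Rars2, at -51 bases: ggccccgtgtGCATGCGCactccacact
Vars2, at -46 bases: agtcttttacGCATGCGCctgcgtgtcc
Vars2, at -20 bases: ccccgcccacGCATGCGCgcgcacctcg
Wars2, at -64 bases: tgcttactacGCATGCGCctgtcctctg

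Genes of the ATF4 pathway were mixed. Of 28 listed, 21 were tested: 8 rose and 7 fell at 2 h, and 7 rose and 4 fell from naive to 24 h, with medians of 0.00 and 0.01. Over all genes tested 14.7% rose and 22.0% fell at 2 h, and 25.3% and 20.6% from naive to 24 h. Atf4 itself read 76.9, 77.5, 81.5 and 83.5 RPKM in naive libraries, 117, 103, 101 and 118 at 2 h and 84.2, 82.6, 78.9 and 76.8 at 24 h. It was 1.37-fold higher at 2 h, without overlap (difference 0.45, SE 0.06, adjusted p = 0.000258), and its 24 h libraries overlapped the naive range (ratio 1.01, adjusted p = 0.88). The amino acid transporter genes Slc3a2 and Slc7a1 were highest at 2 h, 2.14-fold and 2.56-fold over naive (adjusted p = 1.18e-05 and 3.68e-05), and Cebpg, for a dimer partner of ATF4, fell to 0.487 of naive (1.38e-05).

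At 24 h Psat1, Mthfd2, Shmt2 and Cebpg had the smallest p of the pathway genes. Psat1, for the aminotransferase of serine synthesis, rose 4.51-fold (difference 1.73, SE 0.10, adjusted p = 1.3e-07). The rise was 2.35-fold for Mthfd2, for the mitochondrial folate dehydrogenase (1.09, SE 0.07, 2.37e-07), and 1.77-fold for Shmt2, for the mitochondrial serine hydroxymethyltransferase (0.78, SE 0.10, 6.18e-05). Phgdh, for the first enzyme of serine synthesis, had a ratio of 0.993 (adjusted p = 0.881) after a fall to 0.830 of naive at 2 h (adjusted p = 0.00578). Cebpg remained lower, at 0.629 of naive (-0.65, SE 0.09, 0.0001). Ddit3 and Atf5, for transcription factors downstream of ATF4, were at 0.642 and 0.672 of naive, both past the test; Ddit3 shares 68 exon bases with Mars, which rose.

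Other parts of translation were read from gene lists, beside the 25.3% of all genes tested that rose and the 20.6% that fell from naive to 24 h and the 30.9% and 21.5% from 2 h to 24 h. Of 12 genes for eIF2, its exchange factor and its kinases, 5 rose and none fell from naive to 24 h. The smallest p were those of Eif2s1 (1.63-fold) and Eif2s2 (1.34-fold), which encode eIF2 subunits. Eif2b5, for a subunit of the exchange factor, rose 1.37-fold. Eif2ak4, for GCN2, had a ratio of 1.06 (adjusted p = 0.465). Of 9 cytosolic elongation and termination factors 6 rose and 1 fell, with Eef1g (1.83-fold) and Eif5a (1.70-fold) among those that rose. Of 9 mitochondrial translation factors 4 rose from naive to 24 h and 8 from 2 h to 24 h, with none falling in either. Among them were Tufm and Gfm1, for the mitochondrial elongation factors, at 1.40-fold and 1.47-fold over naive. Of 9 tested genes listed for tRNA amidation, formylation, selenocysteine and editing, a list that also holds Tarsl2 and Xpot, only Qrsl1 rose from naive to 24 h. Qrsl1, for a subunit of the mitochondrial amidotransferase that makes glutaminyl-tRNA, rose 1.36-fold (adjusted p = 0.0193). Its partner subunit genes Gatb and Gatc fell at 2 h, to 0.730 and 0.771 of naive. Neither passed at 24 h against naive, at ratios of 1.28 and 1.03 (adjusted p = 0.0525 and 0.725). Wars is known as a target of interferon-gamma, and of 7 tested genes of that response none rose at 24 h (none also at an unadjusted p under 0.05 or by voom) and 2 fell, Ciita and Gbp2 (0.433 and 0.700 of naive).

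Cell cycle genes also rose at 24 h. All 15 listed genes rose from naive to 24 h, with a median difference of 2.02, and 11 of 15 fell at 2 h, with a median of -0.44. Over all genes tested 25.3% rose from naive to 24 h, with a median of 0.00. At 2 h 22.0% of all genes tested fell, with a median of -0.04. Rrm1, for a ribonucleotide reductase subunit, averaged 17.1 RPKM in naive libraries, 12.2 at 2 h and 80.0 at 24 h. The part of the cell cycle genes in the synthetase changes was not tested.

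Several markers of other cells moved with time. The 6 neutrophil markers summed to 18.7 to 27.8 RPKM in naive, 20.6 to 32.7 in 2 h and 38.3 to 44.1 in 24 h libraries, while Ly6g, Retnlg and Camp stayed under 1 RPKM in every library. Of the 2 that were tested, S100a8 rose 2.93-fold at 24 h, from a mean of 10.2 to 29.8 RPKM. Mmp8 went the other way, at 0.797 of naive at 24 h (adjusted p = 0.0529) and falling to 0.707 of its 2 h mean (adjusted p = 0.00627), so the higher sum at 24 h rests on S100a8. The 7 lymphocyte markers summed to 9.49 to 13.9, 2.64 to 6.58 and 1.49 to 3.56, and all 4 tested fell at both times. The 5 interstitial macrophage markers summed to 5.99 to 10, 2.36 to 4.95 and 3.01 to 8.66, and 3 of 4 tested fell at both times, all of them C1q genes. Against naive, 22.0% of all genes tested fell at 2 h and 20.6% at 24 h. Epithelial markers (5 genes) summed to 55.9 to 60.4, 47.2 to 66.9 and 22.9 to 33.1, with Sftpb and Ager under 1 RPKM throughout. Of the 3 tested, Epcam fell from a mean of 42.5 RPKM to 0.287 of naive at 24 h. Sftpc and Scgb1a1 did not pass, at 0.804 and 1.1 of naive (adjusted p = 0.36 and 0.893). The lower epithelial sum at 24 h thus rests mostly on Epcam. The 5 monocyte markers summed to at most 2.78 RPKM and the 5 endothelial and stromal ones to at most 2.09 in any library. The part of these cells in the synthetase changes was not tested.

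Lars2 stood apart from the other mitochondrial members. It read 193, 135, 137 and 257 RPKM in naive libraries, 157, 194, 359 and 295 at 2 h and 161, 109, 121 and 198 at 24 h, from 3979 to 11966 reads. The ranges of the 3 groups overlapped, and none of the comparisons passed (adjusted p = 0.243 for 2 h against naive, 0.461 for 24 h against naive and 0.0505 for 24 h against 2 h, at a ratio of 0.586). The last passed as lower in 8 of the 19 alternative fits, including those run without naive replicate 4, 2 h replicate 1 or 2 or 24 h replicate 4, with adjusted p from 0.0190 to 0.137 over all of them.

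Its level was set beside 3 RNA genes chosen after values had been seen: Gm42418, a long noncoding RNA gene, and mt-Rnr1 and mt-Rnr2, which encode the mitochondrial ribosomal RNAs. Gm42418 read 1151, 875, 790.0 and 1545 RPKM in naive libraries, 998, 1415, 2085 and 1589 at 2 h and 879, 616, 666 and 1111 at 24 h. The library highest in Lars2, 2 h replicate 3, was also highest in Gm42418, and 24 h replicate 2 was lowest in both. Lars2 varied 3.28-fold between libraries and its ratio to Gm42418 1.35-fold, from 0.137 to 0.185. Over 12 libraries and on log2 RPKM, Lars2 correlated with Gm42418 at Pearson's r = 0.97 and Spearman's rho = 0.97 (permutation p, adjusted over 3 relations, 3e-05 for each, the smallest that 100000 resamples can give), and r was 0.95 without the 2 libraries farthest from the median of Gm42418. For mt-Rnr1 the values were r = 0.92 and rho = 0.91 (adjusted permutation p = 7.5e-05 and 0.000195), with r = 0.84 without its 2 farthest libraries. For mt-Rnr2 they were r = 0.72 and rho = 0.69 (adjusted permutation p = 0.00948 and 0.0175), with r = 0.77 without its 2 farthest libraries. The 12 points hold 3 groups that differ in treatment, and the part of ribosomal RNA reads in the level of Lars2 was not tested. No aligned stretch of at least 300 bases at 90% identity was found between Lars2 transcripts and the annotated transcripts of any other gene. That search kept no shorter stretches and held no sequence outside the annotated transcripts, so it cannot show whether ribosomal RNA reads were counted at Lars2.

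**Figure D5:**
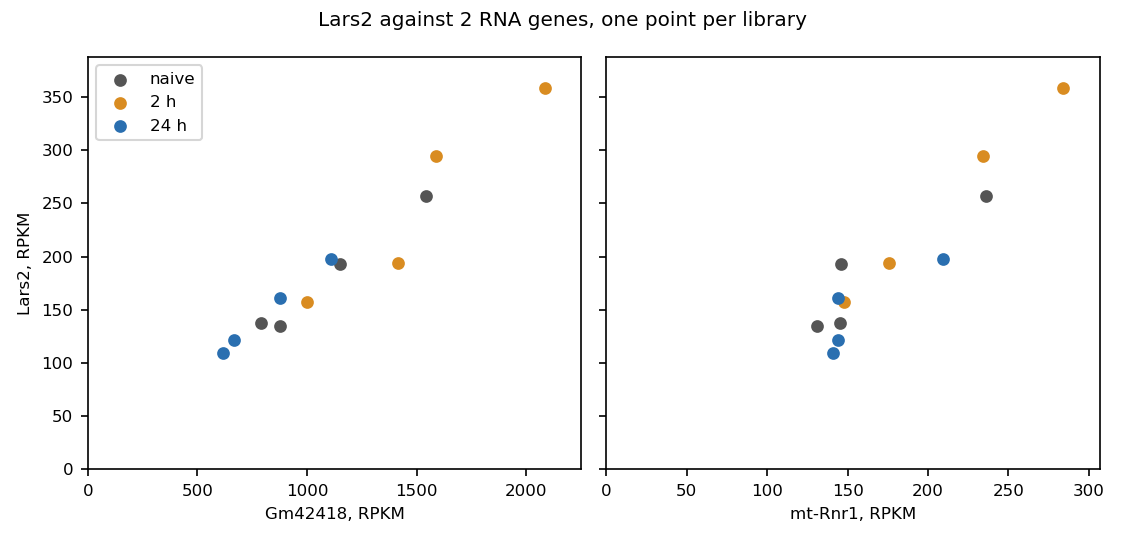
RPKM of Lars2 against that of Gm42418 (left) and of mt-Rnr1 (right), one point per library, coloured by group. Lars2 climbs with both genes, from 109 RPKM in a 24 h library to 359 in a 2 h library, and the colours are mixed along the line.

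Some members share exon bases or sequence with other genes, and reads there could be assigned to either. Iars2 shares 2034 bases with Rab3gap2 on the other strand, the larger part of the 24.2% of its exon bases that lie in other genes. Aars shares 1326 with Exosc6, Fars2 shares 501 with Nrn1, Vars2 shares 465 with the antisense gene Gm20483, Cars2 shares 422 with Naxd and Farsb shares 248 with Sgpp2. Iars has a processed pseudogene, Gm4849, alike at 94.7% over 2251 aligned bases, which averaged 0.00512 RPKM.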

How the data were processed

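Per the labels' protocols, a PicoPure kit was used for RNA, and libraries of polyadenylated RNA followed Illumina's usual steps. The authors deposited RPKM values per Ensembl gene, a column per library. bcl2fastq, TopHat2 and HTSeq were used with build mm10, per the submitters' processing notes; for versions, annotation, strand setting and the definition of gene length, the entry is not given in the sources used here. Symbols, exons and positions came from GENCODE M21 on the assembly of mm10. Genes that reached an RPKM of 1 in 4 or more of 12 libraries were tested on log2(RPKM + 1) by limma 3.58.1 in R 4.3.3, over all 12 libraries, with a variance trend, two-sided moderated tests and Benjamini-Hochberg adjustment over 11419 genes, separately for 3 comparisons. The test was also run on simulated data with a common spread for all genes and few changed genes. These libraries differ from that simulation in both respects, and its outcome is not reported here. Library totals were recovered from the value that 1 read adds to RPKM in each library; reads within 0.02 of a whole number were recovered for 11396 genes (99.8%), so that voom could be run on them. Copies were searched with BLAST+ 2.17.0. Alternatives were a pseudocount of 0.1, median-ratio scaling, voom, a filter at 5 RPKM, no filter, the 2 groups alone, a replicate block and each library left out. The text gives library values for the 4 members with the smallest p of each compartment in each comparison, and up to 4 genes of each other list. The members and lists were chosen with earlier results of these data known. Intervals and p-values cover neither gene length nor mapping. Protein sequences were not used here. A further promoter site is not reported here.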

Additional observations from a re-analysis of the deposited data

Results flagged for a closer look

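In groups of 4 libraries, a library was flagged where its gap to the nearest other library took up most of the range of its group (Dixon's test). Of 108 groups (36 members in 3 groups of libraries) 9 were flagged, and chance flags about 1 in 20. The flagged values are in RPKM. Gars read 94.9 in naive replicate 2, against 102 in each of the others. Kars read 17.8 in 24 h replicate 2, against 16.1 to 16.2. Mars read 4.60 in naive replicate 1, against 5.01 to 5.05, and 4.66 in 2 h replicate 4, against 4.12 to 4.17. Yars read 5.62 in 2 h replicate 2, against 4.45 to 4.61, and 6.13 in 24 h replicate 1, against 6.56 to 6.61. Pars2 read 0.755 in 24 h replicate 4, against 1.07 to 1.12. Sars2 read 5.30 in 2 h replicate 3, against 3.97 to 4.05. Tars2 read 4.68 in 24 h replicate 2, against 3.85 to 3.94.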

How the results depend on the processing

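The direction of no called member changed in the alternatives run. Over members and comparisons, 677 of 705 values from 7 other settings and 1200 of 1260 values from 12 fits without a library stayed on the same side of the threshold; 17 and 50 lost a call and 11 and 10 gained one. The cytosolic rises at 24 h numbered 15 to 16 against naive and 15 to 16 against 2 h without any one library. Counts that moved by more than 1.5 times were these. With a filter at 5 RPKM, which tests fewer genes, 1544 genes fell at 2 h, and 2307 rose and 1616 fell from 2 h to 24 h; mitochondrial rises numbered 3 against naive and 4 against 2 h, and Lars2 was the 1 fall against 2 h. Lars2 was also the 1 fall against 2 h with median-ratio scaling, with voom and with the replicate block. With the 2 groups alone, cytosolic falls at 2 h numbered 2 and mitochondrial falls at 24 h against naive 1 (Fars2). With voom, mitochondrial falls at 2 h numbered 4. The cause of these changes was not tested. Without any one library, cytosolic rises at 2 h ranged from 3 to 6, cytosolic falls at 2 h from 2 to 4, mitochondrial falls at 2 h from 1 to 2 and mitochondrial falls from 2 h to 24 h from 0 to 1. The replicate numbers do not pair the libraries, since same-numbered libraries had correlations of deviations from -0.04 to 0.05; with the numbers as a replicate block, cytosolic rises from naive to 24 h numbered 15 and mitochondrial ones 5. Low read numbers limit the mitochondrial members, of which Pars2 had 13 to 82 reads.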
